A study of Rattus norvegicus with 10 samples.

Results

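Hmgcs1, Idi1, Fdps, Fdft1, Sqle, Cyp51 and Hsd17b7, which encode enzymes of cholesterol synthesis, and Insig1, which encodes a sensor protein that holds the pathway back, were compared between ARSL knockout (KO) and wild-type (WT) rat chondrosarcoma cells. The genes were taken by symbol as known targets of the transcription factor SREBP2, and all 8 were found among the 10184 genes measured. RCS cells derive from a rat chondrosarcoma and lay down cartilage-like matrix. Messenger RNA was profiled 48 h after seeding in 5 ARSL KO libraries and 5 WT libraries of untreated cells, all kept in DMEM with fetal bovine serum, which supplies cholesterol in lipoproteins. ARSL encodes the sulfatase arylsulfatase L, found in the secretory pathway, and in humans its mutations cause a form of chondrodysplasia punctata. The labels call the libraries biological replicates but give neither the number of KO clones nor the days of culture, so the genotype and any other difference between the cell lines cannot be told apart. P-values measure only the spread between these libraries.

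Cells build cholesterol from acetyl-CoA through mevalonate, isopentenyl diphosphate, farnesyl diphosphate, squalene and lanosterol. When sterol in the endoplasmic reticulum membrane is low, SCAP escorts SREBP2 to the Golgi, where it is cut and released to the nucleus. There it raises transcription of nearly every enzyme of the route and of genes of cholesterol uptake. When sterol is plentiful, INSIG proteins hold SCAP and SREBP2 in the endoplasmic reticulum. Because they share this switch, the genes commonly move together, and cartilage cells also need sterol to modify Hedgehog proteins.

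Promoter sequence was available from RefSeq (rat build GRCr8) for Hmgcs1, Idi1, Fdps, Cyp51, Insig1 and Hsd17b7, 6 of the 8 genes, as windows of 250 bases before to 50 bases after the start. Windows were searched on both strands for TCACNCCAC, a form of the sterol response element bound by SREBP2, for CCAAT, the core of the box bound by NF-Y, and for GGGCGG, the core of the box bound by Sp1. Both NF-Y and Sp1 are known partners of SREBP2 at sterol-regulated promoters. CCAAT was found in 5 of the 6 windows, all but that of Cyp51, and in 37.5% of all 33469 rat windows. GGGCGG was found in 5 of the 6, all but that of Idi1, and in 33.1% of all windows. TCACNCCAC was in 0 of the 6 and in 1.12% of all windows, which says only that these letters are not in these windows. The 250 bases before the start, read 5′ to 3′ along the gene, are shown for 4 genes on which the comparison turns, with CCAAT or its reverse complement in capitals. Cyp51 and Idi1 had the smallest p-values for a higher level in KO once 3 libraries were set aside, Hsd17b7 had the largest fitted difference in the other direction, and Hmgcs1 had, of the 8 genes and over all 10 libraries, the library profile nearest to their average.
Cyp51: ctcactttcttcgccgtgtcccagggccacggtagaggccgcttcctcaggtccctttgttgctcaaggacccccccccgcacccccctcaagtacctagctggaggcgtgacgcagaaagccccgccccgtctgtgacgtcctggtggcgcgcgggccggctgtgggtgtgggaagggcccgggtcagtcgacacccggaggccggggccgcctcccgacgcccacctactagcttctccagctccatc
Idi1: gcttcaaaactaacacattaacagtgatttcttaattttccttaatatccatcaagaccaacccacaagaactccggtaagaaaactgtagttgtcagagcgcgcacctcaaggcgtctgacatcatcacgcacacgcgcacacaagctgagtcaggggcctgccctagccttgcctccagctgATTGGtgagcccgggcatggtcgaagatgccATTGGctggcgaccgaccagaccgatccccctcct
Hsd17b7: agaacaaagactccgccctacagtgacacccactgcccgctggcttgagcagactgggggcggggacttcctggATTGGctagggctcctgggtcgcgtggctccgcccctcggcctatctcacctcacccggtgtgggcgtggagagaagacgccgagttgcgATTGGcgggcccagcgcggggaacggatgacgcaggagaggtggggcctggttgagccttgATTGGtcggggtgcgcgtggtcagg
Hmgcs1: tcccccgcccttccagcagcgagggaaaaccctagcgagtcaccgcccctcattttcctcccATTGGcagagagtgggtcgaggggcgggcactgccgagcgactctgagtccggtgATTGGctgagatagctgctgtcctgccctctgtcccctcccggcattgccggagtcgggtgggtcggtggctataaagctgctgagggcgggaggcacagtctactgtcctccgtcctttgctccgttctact
The stretch of Cyp51 lies on the plus strand at chr4:30991443-30991692, and that of Hmgcs1 on the plus strand at chr2:53382054-53382303. The stretch of Idi1 lies on the minus strand at chr17:66547525-66547774, and that of Hsd17b7 on the minus strand at chr13:84722755-84723004. The first letter of the CCAAT matches lay 66 and 35 bases before the start of Idi1, 176, 86 and 25 bases before that of Hsd17b7, and 188 and 133 bases before that of Hmgcs1. The reads were counted on another build, rn6, so these sequences and coordinates describe the genes and not the deposited counts.

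Before the results, 3 libraries have to be named that stand apart over all genes. The first principal component took up 51.1% of the variance. ARSL KO 4 lay at 7.9 on it, and WT 3 and WT 4 at 28 and 26.8, apart from the 7 remaining libraries at -15 to -3. The plan, made with earlier results of these data known, named these 3 libraries to be set aside. Each comparison was made over all 10 libraries and again over the 7 others, ARSL KO 1, 2, 3 and 5 against WT 1, 2 and 5. Totals over the listed genes were 2260216 ± 179783 reads in KO and 2326512 ± 195616 reads in WT (SD, n = 5 each). Rows with the symbol Arsl or Arse numbered 0, so the genotype labels were not checked against the targeted gene. Chondrocyte markers were abundant throughout, and 11 of the 12 listed summed to 47494 to 64370 normalised reads in KO and to 51454 to 90227 in WT. Macrophage markers (2 of 7 in the table, 15.6 to 19.6 in KO and 11.6 to 19.7 in WT) and endothelial markers (1 of 6, 9.23 to 29.3 in KO and 13.5 to 44.9 in WT) had low sums, and fibroblast markers (3 of 8) summed to 43.0 to 90.8 in KO and to 55.8 to 147 in WT. A normalised read is a recovered read divided by its library's size factor.

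Over all 10 libraries, none of the 8 genes passed the test between ARSL KO and WT cells. Their differences, KO minus WT on the deposited log2-like scale, ran from -0.52 for Hsd17b7 to 0.46 for Idi1, with 4 of the 8 above 0 and a median of 0.0. Over the 7 libraries, Cyp51 alone passed, at 1.42 times the WT level, and 7 of the 8 differences were above 0, with a median of 0.19. The median difference of all tested genes was 0.01 in both fits, and 52.1% of them were above 0 over 10 libraries and 51.6% over 7. The 8 genes share their libraries, so they are not 8 separate trials. Over the 7 libraries, their mean deviation from each gene's own mean was 0.39, 0.26, -0.07 and -0.27 in ARSL KO 1, 2, 3 and 5. It was -0.06, -0.04 and -0.21 in WT 1, 2 and 5, so only ARSL KO 1 and 2 lay above every WT library. A gene was called at a limma adjusted p under 0.05 after Benjamini-Hochberg adjustment over 8431 genes. That rule called 0 of the 8 over 10 libraries, against a background of 1.14% of all tested genes, and 1 of the 8 over 7 libraries, against 3.56% in either direction and 1.34% in the direction of a higher level in KO. At an unadjusted limma p under 0.05 there were 2 of the 8 over 10 libraries (background 13.5%), namely Idi1 and Hsd17b7, and 2 over 7 libraries (background 15.9%), namely Cyp51 and Idi1. Limma-voom on the recovered reads also called 0 of the 8 over 10 libraries. In these bulk libraries, fewer cells that express a gene and less of its RNA per cell cannot be told apart.

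**Figure D1:**
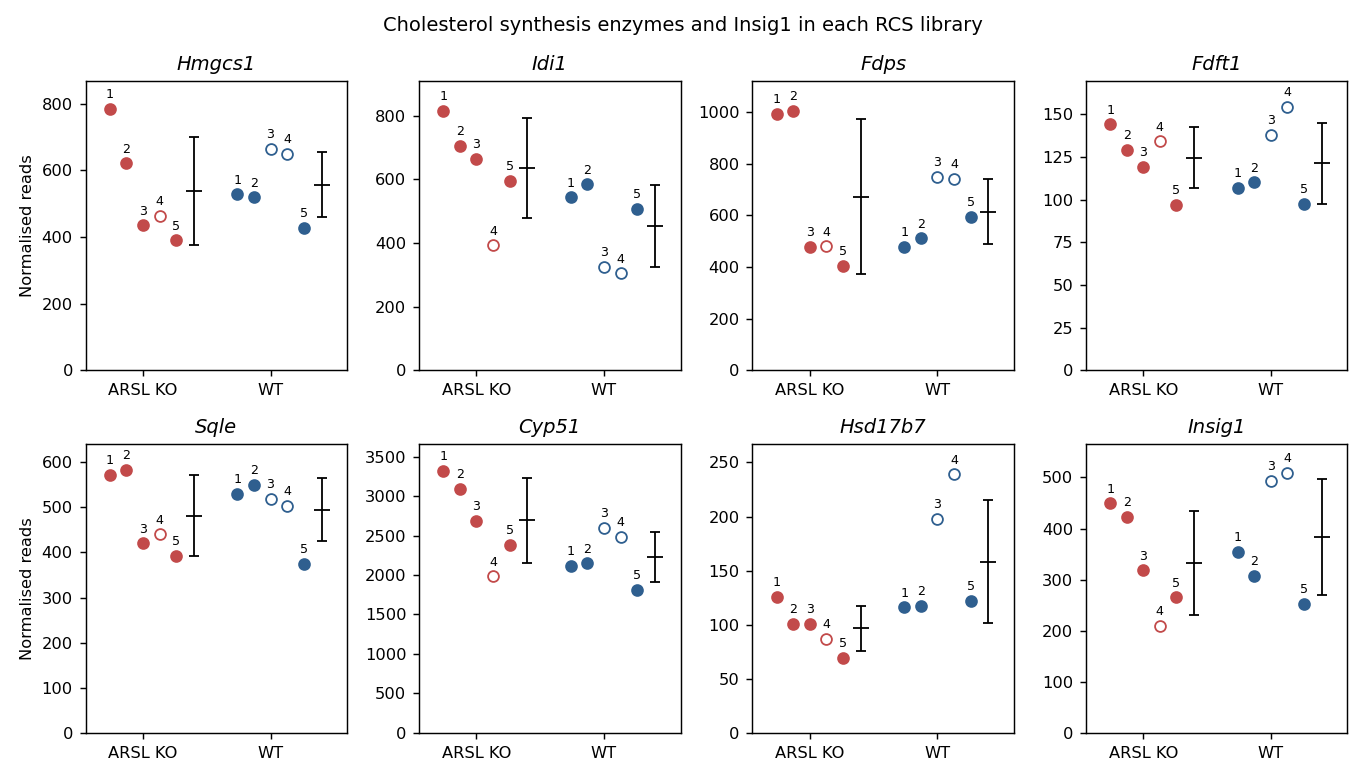
Normalised reads (vertical axes, each starting at 0) of the 8 genes in each library, with ARSL KO in red left of WT in blue, replicate numbers above the points, bars for the group mean ± SD over 5 libraries, and open symbols for WT 3, WT 4 and ARSL KO 4. ARSL KO 1 or 2 is the highest of the KO libraries in every panel, and the groups overlap in every panel when all 10 libraries are counted.

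In the part of the route up to squalene, 0 of the 4 enzymes passed the test in either fit. Hmgcs1 (ENSRNOG00000016552), the cytosolic HMG-CoA synthase of an early step toward mevalonate, had 784, 621, 435, 463 and 390 normalised reads in ARSL KO 1 to 5, against 528, 519, 664, 650 and 428 in WT 1 to 5. Both the highest and the lowest of these libraries were KO, so the KO values spanned those of WT. The groups averaged 539 ± 162 in KO and 558 ± 98.8 in WT (SD, n = 5 each), a log2-like difference of -0.07 with a 95% interval of -0.43 to 0.29 (limma adjusted p = 0.877). Over the 7 libraries the difference was 0.12, with an interval of -0.17 to 0.42 (limma adjusted p = 0.753), so its sign turned when the 3 libraries were set aside.

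Idi1 (ENSRNOG00000016690) encodes isopentenyl-diphosphate isomerase, which turns one isoprene unit into the other. It had 816, 705, 665, 392 and 595 normalised reads in ARSL KO 1 to 5, against 543, 584, 325, 304 and 506 in WT 1 to 5. ARSL KO 4, WT 3 and WT 4 were the 3 lowest libraries, and among the other 7 every KO library was above every WT library. The groups averaged 634 ± 157 in KO and 452 ± 129 in WT (SD, n = 5 each), 1.4 times the WT level, with a difference of 0.46 and an interval of 0.04 to 0.88 (limma adjusted p = 0.316). Over the 7 libraries the averages were 695 ± 92.6 in KO (SD, n = 4) and 544 ± 38.6 in WT (SD, n = 3). The difference was then 0.32 with an interval of 0.13 to 0.52, and it missed the threshold (limma adjusted p = 0.0576). With only WT 3 and WT 4 set aside and the low ARSL KO 4 kept, it was 0.17 (limma adjusted p = 0.66). Idi1 was the only one of the 8 in which WT 3 and WT 4 both lay below all other WT libraries. RefSeq lists 1 pseudogene copy of Idi1 by name, and no source used here says how reads matching both were counted.

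Fdps (ENSRNOG00000043377), the farnesyl diphosphate synthase whose product feeds sterols, dolichol, ubiquinone and protein prenylation, varied most among the KO libraries. It had 994, 1006, 479, 480 and 404 normalised reads in ARSL KO 1 to 5, against 477, 511, 749, 742 and 593 in WT 1 to 5. ARSL KO 1 and 2 were above every WT library, ARSL KO 3 and 4 were above WT 1 alone, ARSL KO 5 was below every WT library, and the highest KO library was 2.49 times the lowest. The averages were 673 ± 300 in KO and 614 ± 127 in WT (SD, n = 5 each), with a difference of 0.04 and an interval of -0.45 to 0.54 (limma adjusted p = 0.951), and 0.32 with an interval of -0.07 to 0.71 over the 7 libraries (limma adjusted p = 0.433). RefSeq lists 5 pseudogene copies of Fdps by name, so its level is uncertain to the extent that reads from them were counted for it.

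Fdft1 (ENSRNOG00000021314), the squalene synthase that commits farnesyl diphosphate to sterols, had 144, 129, 119, 134 and 96.9 normalised reads in ARSL KO 1 to 5, against 107, 110, 138, 154 and 97.3 in WT 1 to 5. The groups overlapped throughout, with ARSL KO 5 and WT 5 lowest and almost equal. Its difference was 0.03 with an interval of -0.22 to 0.29 over 10 libraries (limma adjusted p = 0.922) and 0.16 with an interval of -0.08 to 0.39 over 7 (limma adjusted p = 0.561).

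In the part of the route from squalene to cholesterol, Sqle (ENSRNOG00000009550), the squalene epoxidase and a rate-limiting step, had 572, 583, 420, 440 and 392 normalised reads in ARSL KO 1 to 5. Sqle had 529, 549, 518, 504 and 374 in WT 1 to 5. The other 4 WT libraries lay close together and WT 5 lay below every KO library. The difference was -0.04 with an interval of -0.32 to 0.23 over 10 libraries (limma adjusted p = 0.911) and 0.02 with an interval of -0.24 to 0.28 over 7 (limma adjusted p = 0.971).

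Cyp51 (ENSRNOG00000007234), the lanosterol demethylase, was the gene whose call depended on which libraries were used. It had 3316, 3087, 2686, 1983 and 2381 normalised reads in ARSL KO 1 to 5, against 2118, 2146, 2600, 2483 and 1811 in WT 1 to 5. ARSL KO 4 was below 4 of the WT libraries, and WT 3 and WT 4 were above ARSL KO 5, while each of ARSL KO 1, 2, 3 and 5 was above each of WT 1, 2 and 5. Over 10 libraries the averages were 2691 ± 535 in KO and 2231 ± 315 in WT (SD, n = 5 each), 1.21 times the WT level, with a difference of 0.25 and an interval of -0.05 to 0.56 (limma adjusted p = 0.464). Over 7 libraries they were 2867 ± 416 in KO (SD, n = 4) and 2025 ± 186 in WT (SD, n = 3), 1.42 times the WT level, with a difference of 0.49 (SE 0.101), an interval of 0.28 to 0.69 and a limma adjusted p of 0.00529. Leaving out each of the 7 in turn gave differences of 0.41 to 0.57 and limma adjusted p of 0.000288 to 0.0346, so the call held each time. Neither ARSL KO 1 and 2, which held the highest values, nor WT 1 and 2 were left out together. With only WT 3 and WT 4 set aside and ARSL KO 4 kept, the difference was 0.38 and the limma adjusted p was 0.155. RefSeq lists 1 pseudogene copy of Cyp51 by name.

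Hsd17b7 (ENSRNOG00000002826), which encodes the ketosteroid reductase that acts after Cyp51 in the removal of sterol methyl groups, lay in the other direction. It had 126, 101, 101, 86.9 and 69.1 normalised reads in ARSL KO 1 to 5, against 116, 117, 198, 239 and 122 in WT 1 to 5. All KO libraries but ARSL KO 1 were below all WT libraries, and WT 3 and WT 4 stood far above the other 3 WT libraries, which were nearly equal. The averages were 96.6 ± 20.8 in KO and 158 ± 56.9 in WT (SD, n = 5 each), 0.61 times the WT level, with a difference of -0.52 and an interval of -0.88 to -0.15 (limma adjusted p = 0.19). Without the 3 libraries they were 99.1 ± 23.2 in KO (SD, n = 4) and 118 ± 2.97 in WT (SD, n = 3), 0.838 times the WT level, with a difference of -0.21 and an interval of -0.46 to 0.05 (limma adjusted p = 0.443).

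Insig1 (ENSRNOG00000006859) is itself raised by SREBP2 and so forms a feedback loop. It had 449, 423, 318, 209 and 265 normalised reads in ARSL KO 1 to 5, against 354, 308, 493, 509 and 253 in WT 1 to 5. Its highest libraries were WT 3 and WT 4, followed by ARSL KO 1 and 2, and its lowest was ARSL KO 4. The difference was -0.19 with an interval of -0.62 to 0.25 over 10 libraries (limma adjusted p = 0.71) and 0.21 with an interval of -0.05 to 0.48 over 7 (limma adjusted p = 0.45), again with a turn of sign. With all 10 libraries, the KO and WT values of 0 of the 8 genes were free of overlap, against 4.26% of all tested genes. With 7 libraries this held for Idi1 and Cyp51, 2 of the 8, against 14.6%.

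**Figure D2:**
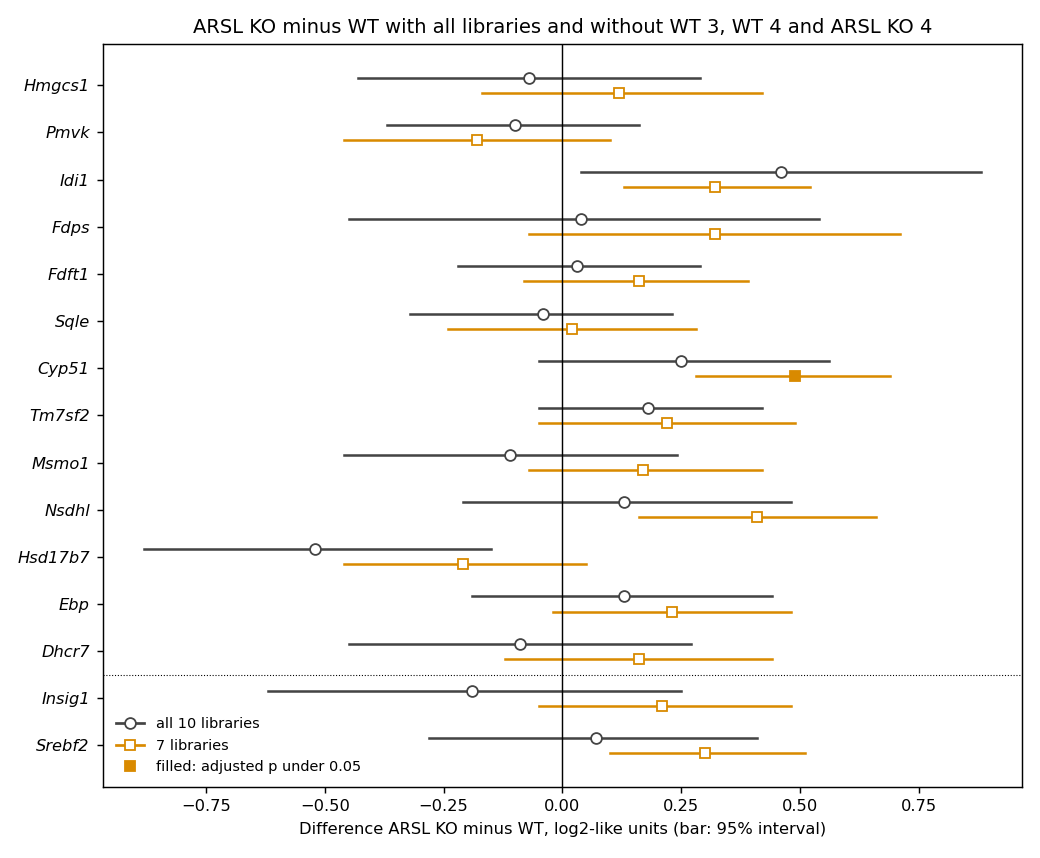
Difference ARSL KO minus WT (horizontal axis, log2-like units) with its 95% interval for 13 enzymes of the route in pathway order and, under the dotted line, Insig1 and Srebf2, over all 10 libraries (dark circles) and over 7 libraries (orange squares). Filled symbols mark a limma adjusted p under 0.05, reached by Cyp51 alone, over 7 libraries, at 0.49.

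Within a genotype, the 8 genes varied more between libraries than the median gene. Among the 3890 genes with a mean of at least 100 normalised reads, the median SD on the log2-like scale was 0.15 in KO, while that of the 8 genes had a median of 0.33 and a range of 0.17 to 0.6. In WT the median SD was 0.2 over those genes and 0.26 over the 8, with a range of 0.2 to 0.4. All 8 exceeded the median of their group in KO and in WT. Without ARSL KO 4 the KO medians were 0.27 for the 8 and 0.12 for all, with all 8 still above, and without WT 3 and WT 4 the WT medians were 0.14 for the 8 and 0.1 for all, with 5 of the 8 above. These are descriptions, since the 8 genes share their libraries.

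High and low values gathered in certain libraries of each genotype. ARSL KO 1 held values above the gene's own median over 10 libraries for 8 of the 8 genes and ARSL KO 2 for 7, but ARSL KO 3 for 2, and ARSL KO 4 and ARSL KO 5 for 1 each. In WT, WT 3 was above the median for 7 genes and WT 4 for 6, WT 1 and WT 2 for 3 each, and WT 5 for 2. The highest of the KO libraries was ARSL KO 1 or 2 for all 8 genes, and the lowest of all 10 libraries was ARSL KO 4, ARSL KO 5 or WT 5 for 7 of them. The shares of all tested genes with these patterns were not counted, so they are not shown to be particular to the 8 genes. Averaged over the 8 genes, the deviation from the gene's mean on the log2-like scale was 0.38, 0.25, -0.08, -0.27 and -0.28 in ARSL KO 1 to 5, against -0.07, -0.05, 0.16, 0.18 and -0.22 in WT 1 to 5. ARSL KO 1 and 2 therefore lay above every WT library, and ARSL KO 4 and 5 below every one. ARSL KO 1 and 2 were also the most alike pair of KO libraries over all genes, with a chi-square of 2.19 per degree of freedom (genes with 20 or more reads in a pair), against 3.99 to 10.7 for the other KO pairs. WT 3 and WT 4 had 2.37 with each other and 15.7 to 21.3 with the other WT libraries.

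**Figure D3:**
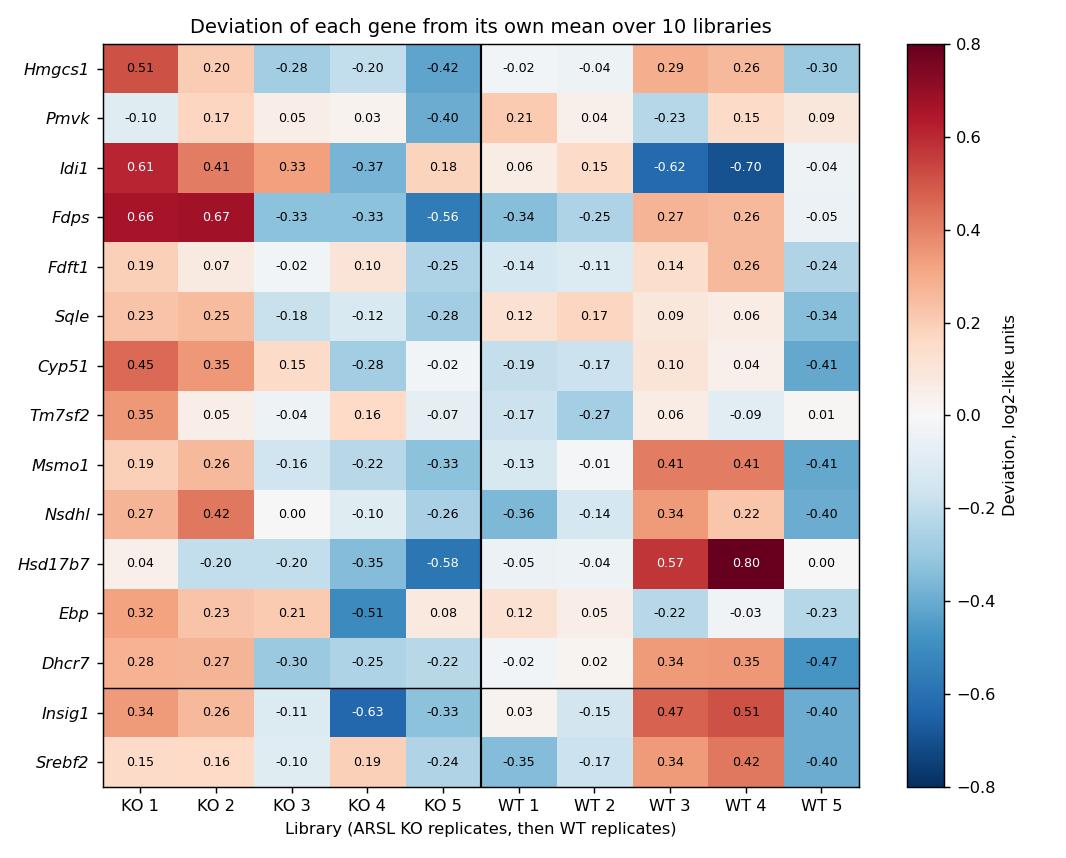
Deviation of each gene from its own mean over the 10 libraries (colour and printed value, log2-like units) for 13 cholesterol synthesis enzymes in pathway order, with Insig1 and Srebf2 below the line; columns are ARSL KO 1 to 5, then WT 1 to 5. ARSL KO 1 is above the mean for every gene but Pmvk and ARSL KO 2 for every gene but Hsd17b7, and WT 3 and WT 4 are high for Hsd17b7 (0.57 and 0.80) but low for Idi1 (-0.62 and -0.70).

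Other features of the libraries moved with some of these values. The 10 proliferation markers, all in the table, summed to 6153 to 7879 normalised reads in KO and to 4461 to 7660 in WT, with WT 3 and WT 4 lowest at 4461 and 4717. Those libraries also had the highest sums of chondrocyte markers, 90227 in WT 3 and 89984 in WT 4. For 6 of the 8 genes WT 3 and WT 4 both lay above the other WT libraries, and for Idi1 both lay below them. WT 3 and WT 4 stand apart over all genes, and the share of all tested genes with such a split was not counted. ARSL KO 1 and 2, where the 8 genes were high, had mean deviations of the proliferation markers of 0.15 and 0.22, against 0.15, -0.10 and 0.23 in ARSL KO 3, ARSL KO 4 and ARSL KO 5, where most of the 8 were low. Between genotypes, the proliferation markers had a median difference of 0.27 over 10 libraries, with 10 of 10 above 0, and of 0.06 over 7, with 8 of 10 above 0. The chondrocyte markers had a median difference of -0.08 over 10 libraries, with 3 of 11 above 0, and of 0.26 over 7, with 8 of 11 above 0, beside the medians of 0.0 and 0.19 for the 8 genes. These markers did not all move the same way. Col11a1 was called lower in KO in both fits, at -1.16 over 10 libraries and -0.85 over 7 (limma adjusted p = 0.0207 and 1.45e-06). Col9a2 was called higher in KO over 7 libraries only, at 0.33 (limma adjusted p = 0.0483). The part of growth state or matrix production in the levels of the 8 genes was not tested.

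The other enzymes of the route added no call to that of Cyp51. Of 19 enzymes listed on the route to cholesterol, 14 were in the table and 13 were tested. Over 10 libraries 0 of the 13 passed the limma test in either direction, 7 were above 0 and the median difference was 0.03. Over 7 libraries Cyp51 passed, 0 of the 13 passed in the other direction, 11 were above 0 and the median was 0.17. Nsdhl, a sterol dehydrogenase of the same demethylation steps as Hsd17b7, had 0.13 over 10 libraries and 0.41 over 7 (limma adjusted p = 0.74 and 0.0601). Pmvk, the phosphomevalonate kinase, had the lowest difference among the enzymes up to squalene, -0.10 over 10 libraries and -0.18 over 7 (limma adjusted p = 0.744 and 0.583). Msmo1 and Dhcr7, late sterol enzymes, had -0.11 and -0.09 over 10 libraries and 0.17 and 0.16 over 7, with limma adjusted p of at least 0.528. Mvk, Mvd, Lss and Sc5d were not analysed here.

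Of 4 tested genes of cholesterol uptake and other SREBP2 targets, 0 passed the limma test over 10 or over 7 libraries, with median differences of -0.16 and -0.11. Stard4, which carries sterol between membranes and is itself a target of SREBP2, had the highest, with 21.1 ± 8.27 normalised reads in KO and 16.3 ± 4.89 in WT (SD, n = 5 each) and a difference of 0.15 over 10 libraries and 0.17 over 7 (limma adjusted p = 0.661 and 0.651). Lrp1, a large lipoprotein receptor of the same list, had the lowest difference, with 84.6 ± 23 normalised reads in KO and 141 ± 65 in WT (SD, n = 5 each) and a difference of -0.50 over 10 libraries and -0.19 over 7 (limma adjusted p = 0.311 and 0.549).

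The genes that switch SREBP2 on and off did not pass the test. Of 11 tested genes of SREBP processing and sterol sensing, 0 passed over 10 or over 7 libraries, with medians of 0.02 and 0.16. Srebf2, which encodes SREBP2, averaged 656 ± 89 normalised reads in KO and 639 ± 186 in WT (SD, n = 5 each), with a difference of 0.07 over 10 libraries and 0.30 over 7 (limma adjusted p = 0.882 and 0.092). Scap, the escort, had -0.06 and 0.08 (limma adjusted p = 0.816 and 0.756). Erlin1, part of an endoplasmic reticulum complex that restrains SREBP activation, had the highest difference of this list over 10 libraries, 0.26, and 0.20 over 7 (limma adjusted p = 0.44 and 0.401). Insig1 had the lowest of this list over 10 libraries. These are messenger RNA levels, and the processing of SREBP2 was not measured.

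Among neighbouring lipid pathways, 0 of 9 tested genes of fatty acid synthesis and SREBP1 targets passed over 10 libraries (background 1.14%). Over 7 libraries 1 of the 9 passed (background 3.56%). It was Acly, the ATP citrate lyase that supplies cytosolic acetyl-CoA, with 1522, 1460, 1116, 1100 and 1164 normalised reads in ARSL KO 1 to 5, against 1008, 1013, 1344, 1352 and 1018 in WT 1 to 5. WT 3 and WT 4 were above ARSL KO 3, 4 and 5, while WT 1, 2 and 5 were below every KO library. Its difference was 0.14 over 10 libraries (limma adjusted p = 0.639) and 0.35 over 7 (limma adjusted p = 0.0429). The call of Acly was lost when ARSL KO 1 or 2 or WT 1, 2 or 5 was also left out, with limma adjusted p of 0.145, 0.13, 0.136, 0.158 and 0.0764 and differences of 0.28, 0.30, 0.35, 0.35 and 0.35. Over 10 libraries the highest difference of this list was that of Aacs, a ketone-using synthetase, 0.33, and the lowest that of Me1, the cytosolic malic enzyme, -0.31 (limma adjusted p = 0.32 and 0.436). Over 7 libraries the highest was that of Scd2, 0.43, which missed the threshold (limma adjusted p = 0.0518). Scd2 had -0.04 over 10 libraries (limma adjusted p = 0.962). Srebf1, which encodes SREBP1, had 0.02 over 10 libraries and 0.19 over 7 (limma adjusted p = 0.954 and 0.401).

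Of 12 tested genes of sterol transport, storage and LXR targets, 0 passed in either fit, with medians of -0.16 and -0.02. Soat1, which esterifies cholesterol for storage, had the lowest difference, with 39.6 ± 15.3 normalised reads in KO and 67 ± 19 in WT (SD, n = 5 each), -0.47 over 10 libraries and -0.40 over 7 (limma adjusted p = 0.193 and 0.104). Stard3, which moves cholesterol between late endosomes and other membranes, had the highest, 0.20 and 0.24 (limma adjusted p = 0.44 and 0.275). Of 12 tested genes of the isoprenoid branches that leave the route before squalene, 0 passed in either fit, and the median was 0.09 in both. Coq2, of ubiquinone synthesis, had 0.40 over 10 libraries and 0.35 over 7 (limma adjusted p = 0.307 and 0.279), and Dolk, the dolichol kinase, had the lowest over 10 libraries, -0.16, and -0.28 over 7 (limma adjusted p = 0.501 and 0.149). Pdss2, also of ubiquinone synthesis, had -0.08 over 10 libraries and the lowest of the list over 7, -0.43, with an interval of -0.68 to -0.17 (limma adjusted p = 0.876 and 0.0527).

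**Figure D4:**
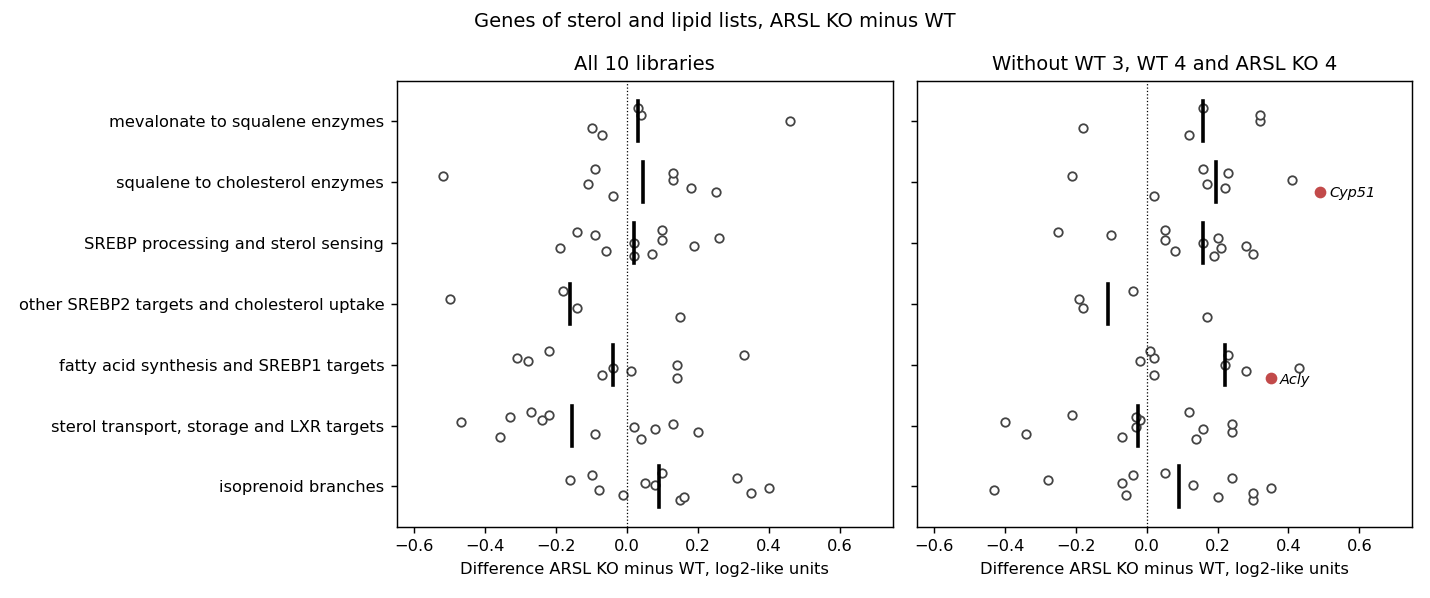
Difference ARSL KO minus WT (horizontal axis, log2-like units) of each tested gene in 7 sterol and lipid lists, over all 10 libraries (left) and without WT 3, WT 4 and ARSL KO 4 (right), with a black bar for each list's median and filled red points for a limma adjusted p under 0.05. No gene is called on the left, and Cyp51 and Acly are called on the right at 0.49 and 0.35.

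The library profile of the 8 genes, their mean deviation in each library, was set beside that of every tested gene by the root mean square distance on the log2-like scale over 10 libraries. A smaller distance is a closer profile, the 8 genes are themselves part of the mean, and the median distance over tested genes was 0.294. A gene that did not vary at all would have a distance of 0.22, so the measure also favours genes of low spread. Fdps, at 0.236, Hsd17b7, at 0.319, and Idi1, at 0.443, lay beyond that value. Hmgcs1 ranked 3 of 8431, Sqle 10, Cyp51 35 and Fdft1 44, so 4 of the 8 were within the nearest 100, which are 1.19% of tested genes. Of 6 tested enzymes of the lists that had no part in the mean, Dhcr7 ranked 17, Msmo1 22 and Nsdhl 42, so 3 of the 6 were within the nearest 100. Insig1 ranked 408, Fdps 1552, Hsd17b7 5313 and Idi1 7972, with Hsd17b7 and Idi1 also beyond the median distance of 0.294. Without WT 3, WT 4 and ARSL KO 4, Insig1 ranked 7, Fdft1 15, Hmgcs1 31 and Idi1 76, again 4 of the 8 within the nearest 100, though Sqle ranked 160 and Cyp51 499. Fdps was then the farthest of the 8, at 4892. Of the 6 enzymes outside the mean, Msmo1 ranked 8, Dhcr7 106 and Nsdhl 224, so 1 of the 6 was then within the nearest 100. The nearest genes outside the 8 over 10 libraries were Cnnm3, C10h5orf15, Tmem69, Rwdd3 and Acly, at distances of 0.098, 0.103, 0.114, 0.115 and 0.122.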

How the data were processed

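Per the labels, total RNA was sequenced with a commercial digital mRNA-seq service, and per the submitters' processing notes the tools were bcl2fastq, STAR 2.7.11a and HTSeq, with build rn6. The authors deposited variance-stabilized, log2-like values for 10184 genes in 10 libraries. The tool that made them, the gene filter and the use of strand were not given in the sources used here. Inverting the closed form of the transformation gave whole reads (largest departure 1.6e-09) and size factors, with 2065594 to 2591819 reads per library over listed genes, which have at least 30 reads in total. On this scale differences understate folds of weak genes. Genes whose mean exceeded the table's lowest value, 4.42, by 1 or more, about 10.7 normalised reads, were tested with limma 3.58.1 in R 4.3.3 (intensity trend, two-sided, Benjamini-Hochberg over 8431 genes). The script was tested on simulated data of 5 against 5 libraries with none standing apart, so the fit over 7 libraries was not covered. The members, lists and tests were chosen with earlier results of these data known. Named genes were the members, genes of the sterol and lipid lists called in either fit, each list's extremes over all libraries and the 5 nearest profiles. Nsdhl, Msmo1, Dhcr7, Srebf2, Scap, Pdss2, Srebf1, Scd2, Col11a1 and Col9a2 were added after their values were seen. Some genes of these lists are not reported here. Alternatives were a replicate block, filters, scalings, variance models, array weights, limma-voom and leaving libraries out. Figures were drawn with matplotlib 3.10.9.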

Additional observations from a re-analysis of the deposited data

Results flagged for a closer look

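Of 46 groups of 5 libraries, a genotype of each of the 23 named genes, 2 held a library far from the other 4 by Dixon's ratio (critical value 0.71), and chance flags about 1 in 20. Sqle had 374 normalised reads in WT 5, below the other WT libraries, with a ratio of 0.774. Erlin1 had 132 normalised reads in ARSL KO 4, below the other KO libraries, with a ratio of 0.726. No explanation of these values was tested.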

How the results depend on the processing

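The count of called genes was 96 over all libraries, and 300 without WT 3, WT 4 and ARSL KO 4, 158 without WT 3 and WT 4 only (chosen after seeing the data), 219 with array quality weights and 60 with the stricter filter, which tested 5770 genes; 91 genes were called both over all libraries and over the 7. Leaving out 1 library gave 33 (without ARSL KO 3) to 101 calls, with 53 without ARSL KO 1, 37 without ARSL KO 2 or ARSL KO 5 and 62 without WT 3. The count of the 8 genes called, and that of the cholesterol enzymes, was 1 without WT 3, WT 4 and ARSL KO 4 and 0 under every other setting that started from all libraries; Cyp51 kept its call in all 7 settings that left out 1 more of the 7 libraries. In the 7 libraries, leaving out 1 more (also chosen after seeing the data) gave 145 (without WT 2) to 342 calls (without ARSL KO 5), with 163 without WT 1. Same-numbered libraries deviated with correlations of -0.06, 0.07, -0.29, 0.59 and 0.26, and 2 of 5 KO libraries correlated best with their own number. The libraries that stand apart weigh on these correlations, so they cannot decide whether the numbers pair the libraries. A replicate block gave 136 calls and 0 of the 8 genes, with Idi1 at 0.46 (limma adjusted p = 0.0718). Signs turned without WT 3, WT 4 and ARSL KO 4 for Hmgcs1 (0.12), Sqle (0.02), Insig1 (0.21) and Me1 (0.02). Of the genes added after their values were seen, signs then turned for Msmo1 (0.17), Dhcr7 (0.16), Scap (0.08), Scd2 (0.43) and Col9a2 (0.33). Of the genes named by rule, signs turned with array quality weights for Hmgcs1 (0.07) and Insig1 (0.06). Without WT 3 and WT 4 they turned for Hmgcs1 (0.08) and Insig1 (0.08). With 1 library left out, the differences ran from -0.21 to 0.02 for Hmgcs1 and from -0.13 to 0.02 for Sqle. They ran from -0.02 to 0.10 for Fdft1 and from -0.12 to 0.19 for Fdps. For Cnnm3 they ran from -0.05 to 0.10 and for C10h5orf15 from -0.04 to 0.10. For Tmem69 they ran from -0.01 to 0.11 and for Rwdd3 from -0.09 to 0.08. With no turn of sign, they ran from -0.31 to -0.05 for Insig1, 0.07 to 0.22 for Stard4 and -0.43 to -0.18 for Me1. Also with no turn of sign, they ran from 0.08 to 0.21 for Acly and from -0.17 to -0.01 for Pmvk. No other gene named by rule moved by over 1.5 times. For the genes added after their values were seen, differences with 1 library left out are not reported here. The causes were not tested.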
